A study of Mus musculus with 56 samples.

Results

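Muscle RNA was read for 10 genes that muscle uses to break down its own protein and organelles: the ubiquitin ligase genes Fbxo32, Trim63, Fbxo30 and Fbxo40, the transcription factor genes Foxo1 and Foxo3, and the autophagy genes Map1lc3b, Bnip3, Gabarapl1 and Ctsl. They were chosen by symbol from the 57010 genes of the count table, with earlier results of these data known. All 10 were measured deeply enough to be tested. The tissue was gastrocnemius, a calf muscle, of mice of 20 to 22 weeks. Every group carried a GFP-tagged L10A ribosomal protein and a Cre recombinase driven by the muscle-specific Mlc1f promoter, so the controls held both as well. Labelled HuR knockouts also had floxed alleles of Elavl1, the gene of the RNA-binding protein HuR. For each of the 28 mice that the labels number there was ribosomal RNA, taken with the tagged ribosomes, and total RNA of the whole muscle, which gave 8 groups of 7 libraries: female knockouts, female controls, male knockouts and male controls in each RNA type. The series' design text counts 7 mice of each sex and does not say whether that is per genotype. The p-values rest on the numbers in the labels and measure the spread between mice so counted.

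A ubiquitin ligase marks a protein for the proteasome. In wasting muscle, FoxO transcription factors enter the nucleus when insulin-type signalling through Akt is low, and they raise the genes of the ligases atrogin-1 (Fbxo32) and MuRF1 (Trim63) and several autophagy genes. Autophagy wraps cell material in a membrane that carries proteins of the Atg8 family, such as LC3B (Map1lc3b) and GABARAPL1 (Gabarapl1), and delivers it to lysosomes, where proteases such as cathepsin L (Ctsl) digest it. BNIP3 sits on mitochondria and ties them to that membrane.

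Ribosomal libraries held 0.160 to 3.58 M counts in genes (median 1.62) and total libraries 2.43 to 5.85 M (median 3.56). All 12 muscle fibre markers were detected and summed to 84390 to 155000 CPM (counts scaled to a common library size) in ribosomal RNA and 53870 to 105300 CPM in total RNA. Elavl1 itself was not called between labelled knockouts and controls in either sex or RNA type (log2 fold changes of −0.14 to 0.29, edgeR adjusted p of at least 0.21). Reads at the 3' end may lie outside the deleted part, so this checks nothing about the genotype labels. In all 4 comparisons 2 other genes were called. Fkbp5, a glucocorticoid-induced chaperone gene, was lower (−2.17 in female ribosomal RNA to −0.78 in male ribosomal RNA). Mss51, a muscle mitochondrial gene, was higher (0.81 to 2.11). Knockouts and controls still overlapped for Fkbp5 in males and for Mss51 in total RNA. In 2 male ribosomal libraries, knockout 2 and control 20, the Y-linked gene Ddx3y was at 124.8 and 161.8 CPM, against 209.1 to 319.9 CPM in the other 12, and Xist was at 18.7 and 9.93 CPM, against at most 1.75 CPM. These libraries were shallow (0.160 and 0.705 M counts), so the values stand for 20 and 114 reads of Ddx3y and 3 and 7 reads of Xist. Male knockout 1, a deeper library, held 4 Xist reads. Results for males in ribosomal RNA were also computed without the 2 libraries of low Ddx3y. In total RNA, female knockouts 5, 6 and 12 stood apart from the other female knockouts by low Mss51, and the calls there are given with and without them.

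Sequences upstream of 3 members are shown because they hold short motifs of factors that act on this pathway. They cover 250 bases before and 50 bases after the transcription start (RefSeq, GRCm38.p6). The submitters' build was GRCm39, so these coordinates name the sequences alone. A promoter of 300 bases was found for 9 of the 10 members; Fbxo32 is named without one. In Trim63, capitals mark first a spaced pair of half-sites of the glucocorticoid receptor, GAACA and TGTTC 3 bases apart, 208 bases before the start, and then the FoxO core TGTTTAC, 194 bases before it. In Bnip3 and Ctsl, capitals mark the E-box CACGTG, which TFEB and MYC family factors can bind, at 108 and 236 bases before the start.
Trim63, chr4:134314870-134315169, plus strand: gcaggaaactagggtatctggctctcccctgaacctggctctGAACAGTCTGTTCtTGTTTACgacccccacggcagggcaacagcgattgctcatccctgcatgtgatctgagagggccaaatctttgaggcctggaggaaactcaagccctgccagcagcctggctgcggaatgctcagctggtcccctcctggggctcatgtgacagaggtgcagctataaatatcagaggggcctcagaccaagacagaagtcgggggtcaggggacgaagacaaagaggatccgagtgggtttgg
Bnip3, chr7:138909457-138909756, minus strand: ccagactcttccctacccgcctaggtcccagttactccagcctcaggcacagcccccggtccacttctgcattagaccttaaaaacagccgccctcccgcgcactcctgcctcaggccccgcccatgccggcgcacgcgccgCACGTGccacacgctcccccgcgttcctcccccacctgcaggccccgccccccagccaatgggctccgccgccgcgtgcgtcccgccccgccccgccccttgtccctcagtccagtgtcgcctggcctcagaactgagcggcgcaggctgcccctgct
Ctsl, chr13:64370471-64370770, minus strand: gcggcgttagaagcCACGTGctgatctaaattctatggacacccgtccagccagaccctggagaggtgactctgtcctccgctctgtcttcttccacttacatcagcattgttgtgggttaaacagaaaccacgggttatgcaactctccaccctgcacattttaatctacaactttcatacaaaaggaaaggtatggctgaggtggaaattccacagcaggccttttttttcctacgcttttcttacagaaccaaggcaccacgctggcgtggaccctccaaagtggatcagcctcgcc
Read on both strands, the FoxO core stood in 3.65% of 32851 promoters of this length, the spaced half-sites in 0.0578% and the E-box in 7.15%. The half-site pair was searched for after the Trim63 sequence had been seen. The longer glucocorticoid element AGAACA and TGTTCT, 3 bases apart, stood in 0.00913% and the palindrome TCACGTGA in 0.974%, and neither was found in the 9 promoters. These matches describe the letters of the windows, not binding.

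HuR binds AU-rich stretches of 3' untranslated regions, so these were read for the AUUUA type of element (GENCODE M21, GRCm38). The pentamer ATTTA stood in the untranslated regions of 9 members, with 13 copies in Foxo1, 8 in Fbxo30, 6 in Fbxo32 and Foxo3, 5 in Bnip3, 4 in Ctsl, 3 in Map1lc3b, 2 in Gabarapl1 and 1 in Fbxo40, and Trim63 had none in 714 bases. At least 1 pentamer stood in 65.2% of 21010 genes and in 96.3% of the 5372 with regions of 2000 bases or more. The longer nonamer TTATTTATT was found in Fbxo40 alone, on chromosome 16, 1325 bases after the stop codon, shown here with its flanks and the nonamer in capitals.
Fbxo40: caatgctaTTATTTATTcctaatct
The nonamer stood in 7.66% of all genes and in 16.8% of those with long regions. Fbxo40 was not called between labelled knockouts and controls in either sex or RNA type.

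In female muscle the labelled knockouts had less Fbxo32 (ENSMUSG00000022358.8) RNA than the controls in both RNA types. Atrogin-1, its product, is the recognition subunit of an SCF ligase and a standard marker of muscle wasting. In ribosomal RNA, Fbxo32 ranged from 359.9 through a median of 623.3 to 807.3 CPM in female knockouts, against 508.4 through 1006 to 2724 CPM in female controls. All 7 knockouts lay below the control median, but only 1 lay below every control. The difference was −0.90 on the log2 scale (SE 0.22, 1.86-fold lower, edgeR adjusted p = 0.0049). In total RNA the levels were 347.2, 517.2 and 570.5 CPM (lowest, median and highest) in female knockouts, against 545.1, 685.3 and 2975 CPM in female controls. Here 4 knockouts were below all controls, and the log2 difference was −1.11 (SE 0.27, 2.16-fold lower, adjusted p = 0.0083). One control stood far above the others in each RNA type: mouse 18 in ribosomal RNA, with 0.575 M counts, and mouse 21 in total RNA. Without mouse 18 the ribosomal difference was −0.56 (SE 0.17, adjusted p = 0.023), and without mouse 21 the total difference was −0.58 (SE 0.17, adjusted p = 0.038), so both calls held at smaller sizes.

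In male muscle the Fbxo32 difference passed no test. Male knockouts had 531, 613.6 and 751.4 CPM in ribosomal RNA, against 478.6, 777.9 and 825.2 CPM in male controls, a difference of −0.18 (95% interval −0.63 to 0.27, adjusted p = 0.69). In total RNA, male knockouts had 482.7, 580.9 and 862.3 CPM, against 434.5, 731.6 and 992.5 CPM, a difference of −0.31 (interval −0.85 to 0.23, adjusted p = 0.46). The male groups overlapped over most of their range. All 7 male ribosomal knockouts were nonetheless below the control median, as were 6 of 7 in total RNA.

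Trim63 (ENSMUSG00000028834.14) encodes MuRF1, a RING-finger ligase of the sarcomere that attacks thick-filament proteins. It did not pass the test in any knockout comparison. Female knockouts had 527.9, 714.3 and 878.1 CPM in ribosomal RNA, against 409.7, 709.2 and 2111 CPM in female controls, with near-equal medians (log2 difference −0.37, SE 0.23, adjusted p = 0.29). In total RNA they had 296.9, 401.9 and 493.6 CPM, against 363, 462.6 and 1243 CPM, a difference of −0.52 (SE 0.19, adjusted p = 0.082). The highest control was again mouse 18 in ribosomal RNA and mouse 21 in total RNA, and without them the differences were −0.04 and −0.19 (adjusted p = 0.41 for total RNA). In males the differences were 0.18 in ribosomal and 0.03 in total RNA.

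The other ligase genes were called in no knockout comparison either. Fbxo40 (ENSMUSG00000047746.15) encodes a muscle F-box protein that directs the insulin receptor substrate IRS1 to degradation. It had 597.7, 863.1 and 1023 CPM in female ribosomal knockouts, against 484.8, 745 and 1176 CPM in female controls (log2 difference 0.03, adjusted p = 0.93). In male total RNA all 7 knockouts were below the control median, at 273.1, 297 and 326.3 CPM, against 285.9, 341.9 and 478.1 CPM in male controls (−0.25, SE 0.10, adjusted p = 0.077). Fbxo30 (ENSMUSG00000047648.14), the gene of the atrophy ligase MUSA1, had 5.03 to 21.9 CPM in all knockout ribosomal libraries and 3.67 to 16.6 CPM in all control ones. Its knockout differences lay between −0.06 and 0.12.

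**Figure D1:**
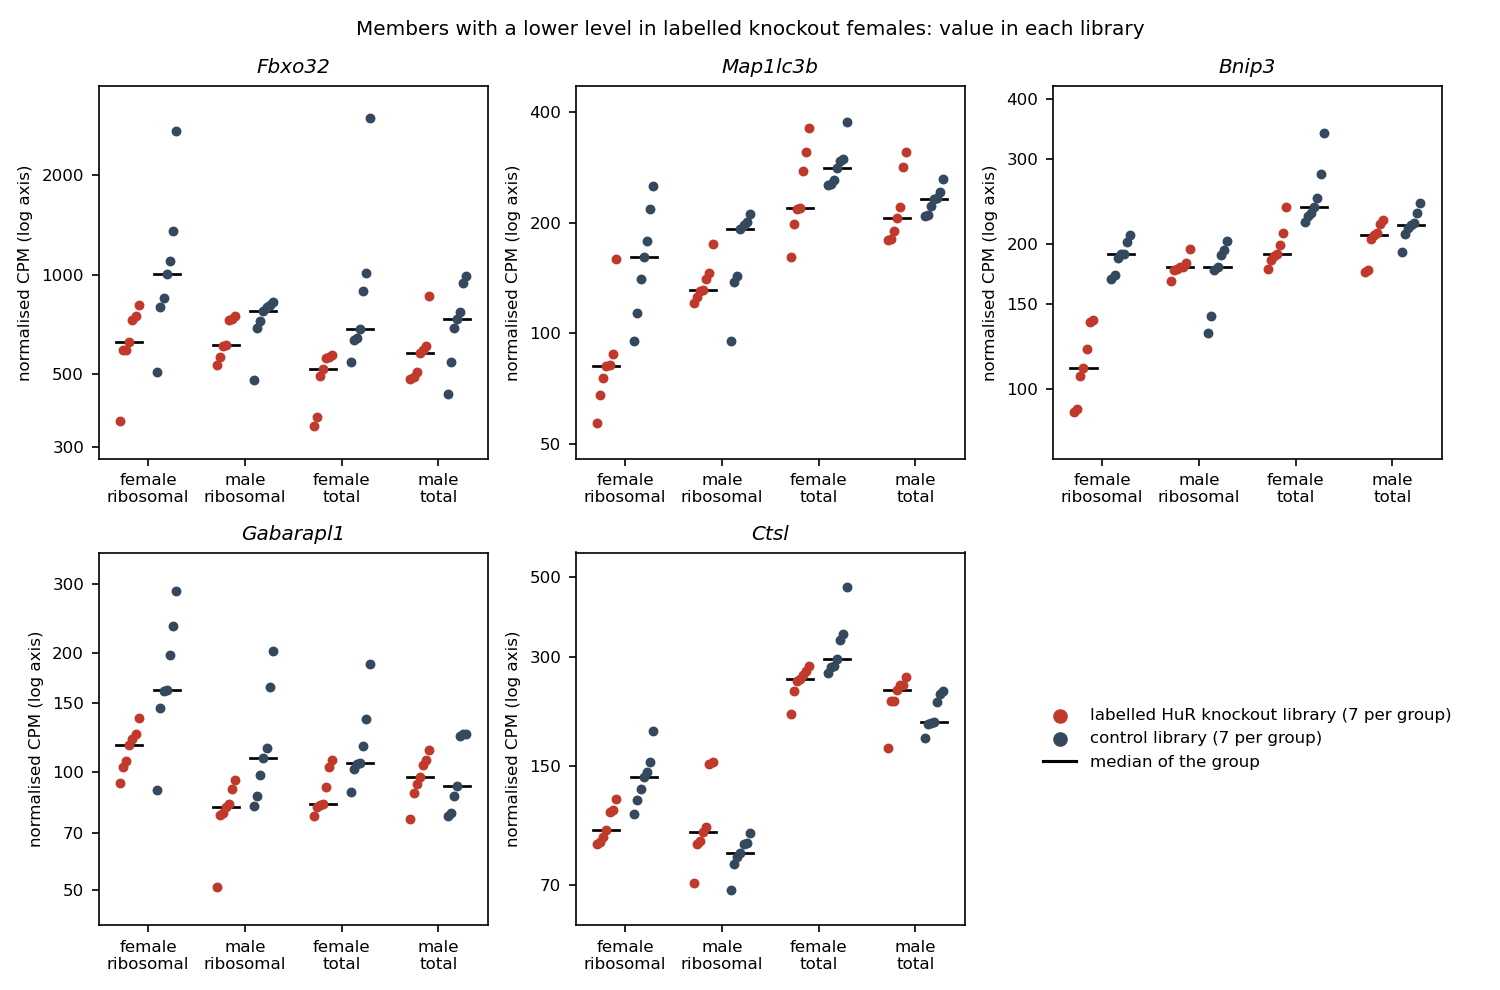
Normalised CPM (log axis) of Fbxo32, Map1lc3b, Bnip3, Gabarapl1 and Ctsl in the 56 libraries, 1 panel per gene, with 1 point per library and the median of each group as a bar; labelled knockouts stand left of controls for each sex and RNA type. In female ribosomal RNA the 7 Bnip3 knockout points, at 89.6 to 139.2 CPM, all lie below the 7 control points at 169.4 to 208.3 CPM, while male points overlap.

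Foxo1 (ENSMUSG00000044167.7) and Foxo3 (ENSMUSG00000048756.12), the genes of the FoxO factors best known in muscle wasting, were not called in any knockout comparison. Foxo1 had 12.6, 22.8 and 58.5 CPM in female ribosomal knockouts, against 18.4, 25.1 and 40.2 CPM in female controls (log2 difference −0.12, interval −0.65 to 0.41). In female total RNA all 7 knockouts were below the control median, at 38.8, 49.2 and 55.8 CPM, against 36.6, 57.8 and 91.6 CPM (−0.31, SE 0.14, adjusted p = 0.17). Foxo3 in female total RNA had 32.5, 35.6 and 38.99 CPM in knockouts, against 36, 38.5 and 56.1 CPM in controls, with 5 knockouts below all controls (−0.23, SE 0.11, adjusted p = 0.21). In males the differences were −0.18 and −0.14 for Foxo1 and 0.01 and 0.08 for Foxo3, in ribosomal and total RNA in this order.

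All 4 autophagy members were lower in knockouts in female ribosomal RNA. Bnip3 (ENSMUSG00000078566.9) was the one member whose groups did not overlap, with 89.6, 110.7 and 139.2 CPM in female knockouts, against 169.4, 190.1 and 208.3 CPM in female controls. The log2 difference was −0.71 (SE 0.11, 1.63-fold lower, adjusted p = 3.8e-05). How many of all genes tested showed no overlap was not counted, here or in the later comparisons. Map1lc3b (ENSMUSG00000031812.17) had 57, 81.3 and 159.3 CPM, against 95.4, 161.6 and 252.5 CPM. Here 6 of 7 knockouts were below every control, and the log2 difference was −0.95 (SE 0.20, 1.93-fold lower, adjusted p = 0.00096). Gabarapl1 (ENSMUSG00000030161.9) had 93.9, 117.1 and 137.5 CPM, against 89.9, 161.1 and 288.8 CPM, with all 7 knockouts below the control median (−0.64, SE 0.19, adjusted p = 0.021). Ctsl (ENSMUSG00000021477.10) had 90.95, 99.4 and 121 CPM, against 110.1, 139.1 and 187 CPM, with 4 knockouts below every control (−0.43, SE 0.14, adjusted p = 0.027). The Gabarapl1 call ended without control 18 (−0.51, adjusted p = 0.0506) or control 21 (−0.55, 0.055). GENCODE M21, which may differ from the annotation of the counts, lists genes on the opposite strand of Map1lc3b, Bnip3, Gabarapl1, Ctsl, Fbxo32 and Foxo1. Zcchc14 opposite Map1lc3b is an example. On the same strand it lists Gm20388 over Map1lc3b, Gm44243 over Gabarapl1, Gm49230 over Ctsl and Gm38034 over Foxo1. Whether reads were counted by strand is not given in the sources used here, so reads of opposite pairs cannot be told apart. Counting by strand would not part the genes on the same strand.

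Together, 5 of the 10 members passed the test in female ribosomal RNA, all lower in knockouts, where 16.8% of the 9098 genes tested passed in either direction. The median log2 difference of the members was −0.40, against −0.02 over all genes tested. Without the ribosomal libraries under 0.75 M counts (female knockouts 2, 6 and 12 and female controls 18 and 19), 2 of the 5 calls remained, Map1lc3b and Bnip3, and Fbxo32 was at −0.53 (adjusted p = 0.081), Gabarapl1 at −0.51 (0.072) and Ctsl at −0.38 (0.076).

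Female ribosomal knockouts also differed from female controls in RNA of other sources. The fibroblast and matrix list was higher for 8 of 9 tested genes, with a sum of 445.7 to 1573 CPM in knockouts, against 294 to 353.6 CPM in controls. Mitochondrially encoded mRNAs were higher for 7 of 7 (4919 to 22370 CPM, against 1632 to 4014 CPM), and nuclear long non-coding RNAs for 5 of 5 (665.3 to 4458 CPM, against 231.5 to 584.2 CPM). Erythroid genes were higher for 5 of 5 (273.4 to 1009 CPM, against 115.9 to 308.6 CPM), macrophage genes for 3 of 4, endothelial genes for 5 of 7, smooth muscle and pericyte genes for 3 of 4, Schwann cell genes for 2 of 3, satellite cell genes for 1 of 3 and adipocyte genes for 0 of 4. The endothelial sum did not follow its count, at 350.4 to 702.4 CPM in knockouts and 512.8 to 742.5 CPM in controls. Muscle fibre markers were higher for 4 of 12 and lower for none (118400 to 155000 CPM, against 86820 to 139600 CPM). Reads outside genes made up 6.53 to 12.5% in knockouts, against 5.001 to 9.999% in controls. With mitochondrially encoded mRNA added as a covariate, 5 members were called, and they were the same 5. Far fewer of all genes were called with the covariate, and their number is given in the closing section. The part of the other sources in the result was not tested. In bulk RNA, fewer cells of a type and less RNA per cell cannot be told apart.

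In female total RNA 3 of 10 members passed, all lower in knockouts: Fbxo32, Bnip3 and Ctsl, where 8.49% of 12860 genes passed. All 10 members had negative differences, with a median of −0.33, against 0.01 over all genes tested. Bnip3 had 177.4, 190.7 and 238.9 CPM in knockouts, against 221.7, 238.5 and 340.3 CPM in controls, with 6 knockouts below every control (−0.36, SE 0.09, adjusted p = 0.0084). Ctsl had 209.2, 261 and 284 CPM, against 271.2, 296 and 469.4 CPM, with 5 knockouts below every control (−0.35, SE 0.11, adjusted p = 0.040). Gabarapl1 missed the threshold (77.4, 83 and 107.5 CPM, against 88.9, 105.2 and 187.7 CPM; −0.42, adjusted p = 0.0508), and so did Map1lc3b (161.8, 219.8 and 361.7 CPM, against 254, 282.7 and 377 CPM; −0.21, adjusted p = 0.37). Control 21 was the highest female control for 8 of the 10 members, all but Fbxo30 and Fbxo40. Without it Bnip3 was at −0.27 (adjusted p = 0.041) and Ctsl at −0.23 (0.17). The Ctsl call also ended without any 1 of knockouts 2, 5, 6, 9, 10 and 12 and controls 14, 16 and 18, with values of −0.36 to −0.30 and adjusted p of 0.053 to 0.082. Gabarapl1 was called without any 1 of knockouts 6 and 12 and control 15 (−0.48 to −0.46, adjusted p of 0.033 to 0.047). Without knockouts 5, 6 and 12, Fbxo32 (−1.07, adjusted p = 0.040), Map1lc3b (−0.54, 0.012) and Gabarapl1 (−0.53, 0.043) were called and Bnip3 (−0.32, 0.067) and Ctsl (−0.34, 0.11) were not. In this contrast 5 of 9 matrix genes and 5 of 5 erythroid genes were higher in knockouts, with matrix sums of 3603 to 5709 CPM, against 2065 to 4152 CPM, and the part of these cells was not tested.

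In males no member passed in either RNA type. In ribosomal RNA 0 of 10 passed edgeR, where 8.96% of genes did; 2 members had an unadjusted p under 0.05, DESeq2 called 0 and limma-voom called 1. These 2 members were Gabarapl1 and Ctsl, which differed in sign. Gabarapl1 had 51.1, 81.5 and 95.2 CPM in male knockouts, against 81.8, 108.7 and 202.7 CPM in male controls, with 4 knockouts below every control (−0.52, SE 0.19, adjusted p = 0.075). Ctsl had 70.9, 97.9 and 153.2 CPM, against 67.6, 85.8 and 97.5 CPM, with 4 knockouts above every control (0.28, SE 0.13, adjusted p = 0.20). Map1lc3b, the gene that limma-voom called, had 120.7, 131.3 and 175 CPM, against 95.5, 192.7 and 211.6 CPM (−0.30, adjusted p = 0.34 by edgeR). Bnip3 had 167.8, 179 and 194.7 CPM, against 130.6, 179.3 and 202.3 CPM, with medians that were nearly equal. In total RNA 0 of 10 passed edgeR, where 14.2% of genes did; 1 member, Fbxo40, had an unadjusted p under 0.05, and DESeq2 and limma-voom called 0. The median difference of the members was −0.08 in ribosomal and −0.06 in total RNA, against −0.01 and 0.00 over all genes tested. Erythroid genes were higher for 5 of 5 in male ribosomal knockouts, with sums of 419.4 to 523 CPM, against 116.4 to 295.8 CPM. In male total RNA all 9 matrix genes, all 5 erythroid genes and 2 of 8 mitochondrially encoded mRNAs were higher in knockouts, and 4 of 5 nuclear long non-coding RNAs were lower (sums of 2369 to 3972 CPM, against 3382 to 5978 CPM). Kidney transcripts were higher for 3 of 3 tested, with sums of 6.74 to 1176 CPM, the highest in knockout 6, against 2.98 to 111.5 CPM in controls. The part of these sources in the male values was not tested. Gabarapl1 was called in male ribosomal RNA without male control 23 (−0.59, adjusted p = 0.0497) or 25 (−0.60, 0.044), and Fbxo40 in male total RNA without male control 22 (−0.30, 0.034).

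**Figure D2:**
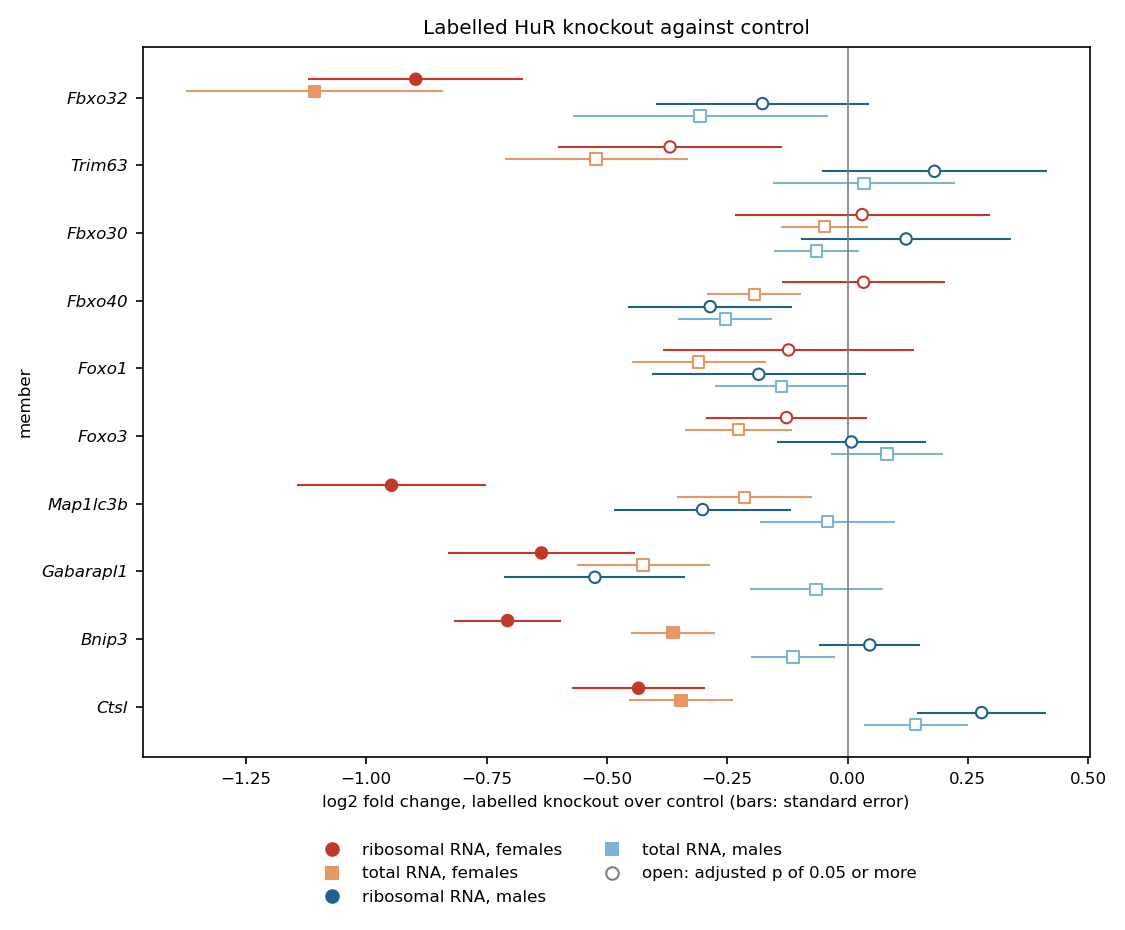
Log2 fold change of labelled knockouts over controls for the 10 members in each sex and RNA type, as points. Bars show 1 standard error, computed from the edgeR fold change and F statistic. Filled points passed the test at an adjusted p under 0.05 and open ones did not. The filled points all belong to females, 5 in ribosomal and 3 in total RNA, and lie between −1.11 and −0.35.

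**Figure D3:**
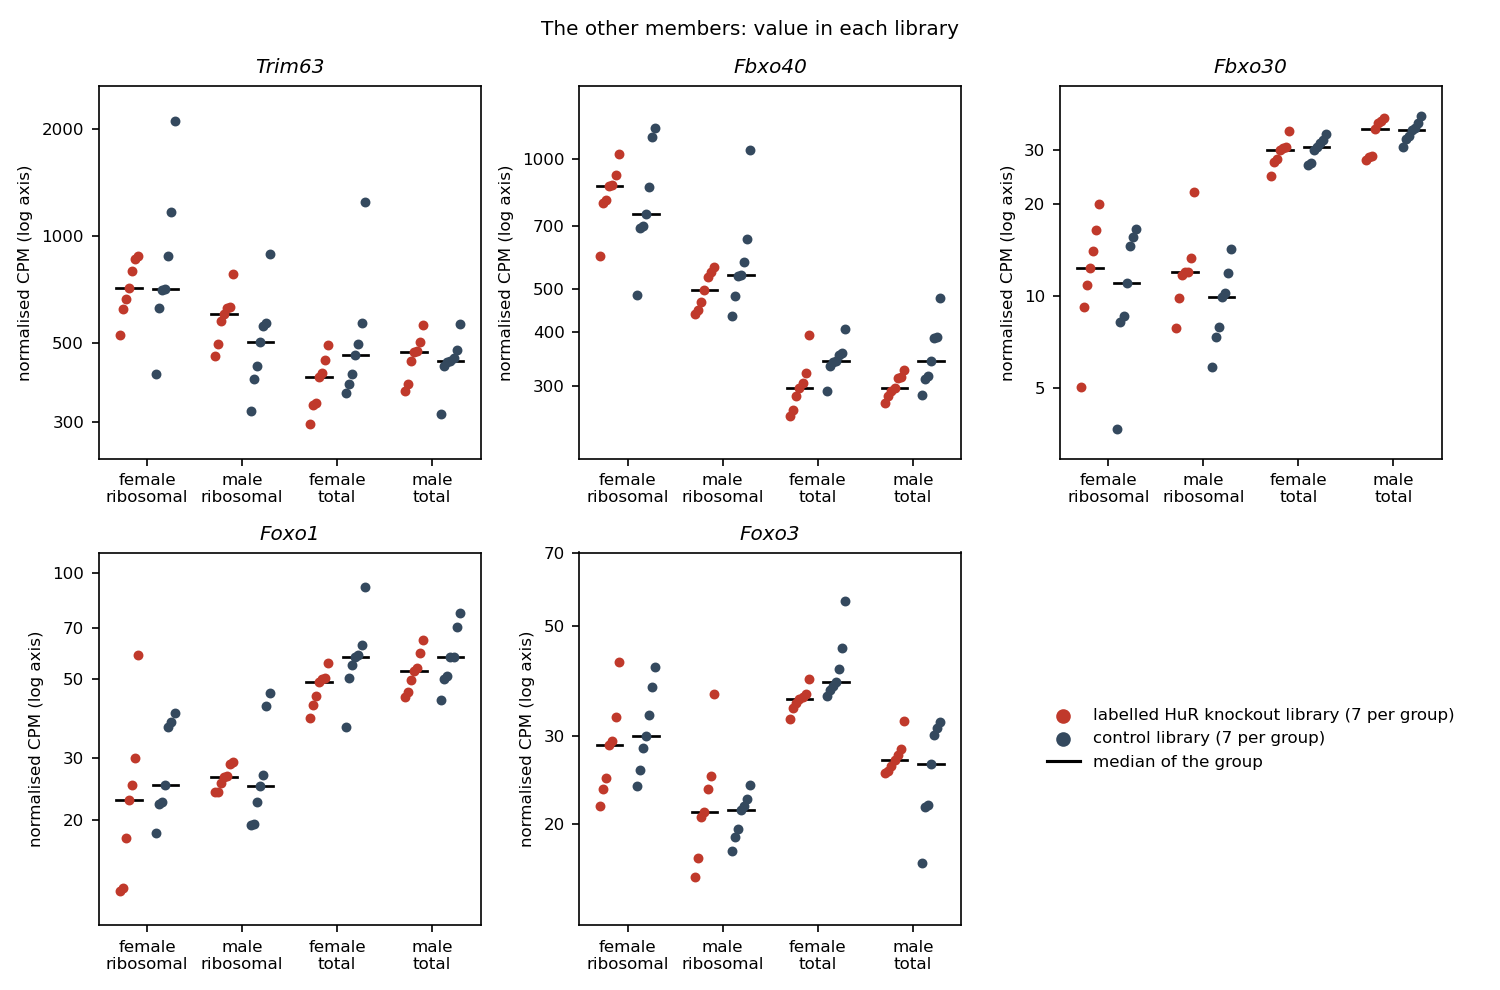
Normalised CPM (log axis) of Trim63, Fbxo30, Fbxo40, Foxo1 and Foxo3 in the 56 libraries, drawn like the panels of the other members. Knockout and control points overlap in every panel, and the highest Trim63 points are female control 18 in ribosomal RNA at 2111 CPM and female control 21 in total RNA at 1243 CPM.

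The difference of the knockout effect between sexes was tested directly. In ribosomal RNA 2 of 10 members passed, where 3.43% of genes did. For Bnip3 the male effect minus the female effect was 0.75 (SE 0.15, adjusted p = 0.0065), from a male effect of 0.05 and a female effect of −0.71. For Ctsl it was 0.71 (SE 0.19, adjusted p = 0.032), from 0.28 in males and −0.43 in females. Fbxo32 (0.72, adjusted p = 0.18), Map1lc3b (0.65, 0.16) and Gabarapl1 (0.11, 0.86) did not pass, so their lack of a call in males is no measured difference from females. Trim63, which was called in neither sex, did not pass either (0.55, 0.34). The Map1lc3b difference was called without female knockout 5 (0.88, adjusted p = 0.041). The mitochondrial covariate left Bnip3 at 0.66 (adjusted p = 0.12), and leaving out the libraries under 0.75 M counts left Ctsl at 0.63 (0.058). The Ctsl call also ended without any 1 of female knockout 12, female controls 14 and 15, male knockouts 12 and 13 and male control 21 (0.59 to 0.72, adjusted p of 0.050 to 0.058). In total RNA 0 of 10 members and 0% of genes passed edgeR; 3 members had an unadjusted p under 0.05 (Fbxo32 at 0.80, Trim63 at 0.56 and Ctsl at 0.49), and DESeq2 called 0 members and 22 genes.

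Other genes of the same pathways were read from lists of related ligases, FoxO targets, upstream regulators, autophagy and lysosome genes. The background share of all genes called was 16.8% in female ribosomal, 8.49% in female total, 8.96% in male ribosomal and 14.2% in male total RNA, and a share near it is no result about a list. The lists were chosen with earlier results of these data known, so a share above the background is a description and no independent test. FoxO family genes and targets had the largest share of calls among these lists in females. In female ribosomal RNA 8 of 17 were lower and 1 was higher in knockouts, with a median of −0.52, against −0.02 over all genes. Pdk4, a kinase that shuts glucose carbon out of mitochondria, averaged 77.6 ± 23.3 CPM in knockouts and 253.9 ± 137.1 CPM in controls (SD, n = 7 each; log2 difference −1.70, adjusted p = 0.001). Catalase (Cat), which breaks down hydrogen peroxide, averaged 38 ± 8.77 CPM in knockouts and 70.5 ± 9.28 CPM in controls (−0.96, adjusted p = 0.00016), with no overlap. Pik3ip1, an inhibitor of phosphoinositide 3-kinase, averaged 38.8 ± 6.39 and 72.4 ± 12.9 CPM in the same order (−0.87, adjusted p = 0.00018), again with no overlap. Gadd45a, a stress gene of atrophy, was also lower (−1.09, adjusted p = 0.00025). Without the libraries under 0.75 M counts 7 of 19 were lower and 1 higher, and with the mitochondrial covariate 5 of 17 were lower and 1 higher.

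In female total RNA 6 of the 19 FoxO genes were lower and 1 higher, with a median of −0.42, against 0.01 over all genes. The lowest p belonged to Pik3ip1 (68.2 ± 12.2 CPM in knockouts and 128.4 ± 22.3 CPM in controls; −0.91, adjusted p = 1.3e-05), followed by Eif4ebp1, a brake on translation (−0.81), Cat (−0.42) and Insr, the insulin receptor (−0.53). In males 2 were higher and 2 lower of 17 in ribosomal RNA, and 1 higher and 2 lower of 19 in total RNA. The shares over all genes were 8.49% in female total, 8.96% in male ribosomal and 14.2% in male total RNA. Foxo6, a further FoxO factor, was higher in male knockouts in ribosomal RNA (24.8 ± 5.83 CPM, against 7.96 ± 3.59 CPM in male controls; 1.57, adjusted p = 0.00021) and also in total RNA, by 1.26 (adjusted p = 0.0024). Insr was lower in both male comparisons (−0.58 and −0.72). The difference of effects between sexes passed for 5 of the 17 in ribosomal RNA, where 3.43% of all genes tested passed. In all 5 the male effect minus the female effect was positive, among them Pdk4 (2.05, adjusted p = 0.016), Ccng2 (1.10), Klf15 (1.09) and Cat (0.94). Without the libraries under 0.75 M counts 2 of them passed, and with the mitochondrial covariate 0 passed. Far fewer of all genes passed with the covariate as well, as given in the closing section, so the 0 is no result about this list.

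Among 29 other ligases and ubiquitin genes, 6 were lower and 0 higher in female ribosomal knockouts (median −0.25). Over all genes tested, 16.8% were called there, 8.49% in female total, 8.96% in male ribosomal and 14.2% in male total RNA. Zfand5, a zinc-finger protein that activates the proteasome and rises in wasting, had the lowest p: 180.1 ± 22 CPM in knockouts, at 153.5 to 212.5, and 309.8 ± 30 CPM in controls, at 268 to 364.5 (−0.79, SE 0.10, adjusted p = 1.7e-06). Znrf2 (−0.81), Ube2g1 (−0.52) and Mul1 (−0.46), the gene of a mitochondrial ligase, were also lower. In female total RNA 4 were lower and 0 higher, led by Zfand5 (−0.54, adjusted p = 5.7e-05), Ube4b (−0.53), Ubr2 (−0.43) and Fbxo31 (−0.43). In males 2 were higher (Ube2d1 at 0.52 and Usp19 at 0.32) and 2 lower (Stub1 at −0.55 and Mul1 at −0.41) in ribosomal RNA, and 0 higher and 2 lower (Nedd4l at −0.54 and Ubr2 at −0.39) in total RNA. The effect on Zfand5 differed between sexes in ribosomal RNA by 1.04 (adjusted p = 0.0001), and that on Ube2d1 by 0.84.

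Autophagy and lysosome genes outside the members were read in 3 lists. The shares of all genes called were again 16.8% in female ribosomal, 8.49% in female total, 8.96% in male ribosomal and 14.2% in male total RNA. In female ribosomal RNA 2 of 24 initiation and conjugation genes were lower, Ulk1, the initiating kinase (−0.81, adjusted p = 0.039), and Atg4c (−1.03, 0.023), and 0 were higher. Of 15 other Atg8 and cargo receptor genes 2 were lower, Pink1, a kinase that marks damaged mitochondria (−0.44), and Bcl2l13, a mitophagy receptor (−0.59), and 0 were higher. Of 22 lysosome genes 3 were lower and 2 higher. With the mitochondrial covariate, which lowered the number of calls over all genes, 0 initiation genes were called. Npc1, the cholesterol exporter of lysosomes, was lower in all 4 knockout comparisons: −1.23 in female ribosomal RNA (17 ± 4.96 and 40.6 ± 10.6 CPM in knockouts and controls), −0.98 in female total RNA, −0.87 in male ribosomal RNA and −0.84 in male total RNA. Counts of called genes in the other comparisons were 2 lower of 24, 3 lower of 16 and 4 lower of 23 in female total RNA, with Wipi2 (−0.36), Calcoco1 (−0.38), Sqstm1 (−0.34) and Gaa (−0.58) among them. In male ribosomal RNA 1 of 24 was higher, Rb1cc1 (0.36), 0 of 15 were called, and 4 of 22 were lower, and in male total RNA 1 of 24 was lower, 0 of 16 were called, and 3 of 23 were lower and 3 higher.

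Upstream of FoxO, 2 of 26 regulators were higher and 2 lower in female ribosomal knockouts, a share near the 16.8% of all genes called. The shares of all genes were 8.96% in male ribosomal, 8.49% in female total and 14.2% in male total RNA. Igf1, the growth factor that restrains FoxO through Akt, averaged 36.9 ± 18.6 CPM in knockouts and 15.7 ± 4.22 CPM in controls (1.27, adjusted p = 0.002), and Nr3c1, the glucocorticoid receptor gene, 147 ± 20.8 and 101.8 ± 22.2 CPM (0.50, adjusted p = 0.0065). Fkbp5 and Ppargc1a (−0.70) were the lower ones. In male ribosomal knockouts 3 were lower and 0 higher, among them Mstn, which encodes myostatin (−1.17, adjusted p = 0.022), and Fkbp5. In total RNA 3 were higher and 6 lower in females, and 2 higher and 5 lower in males, with Fst, a myostatin antagonist, higher in both (0.59 and 0.61). The effect on Igf1 differed between sexes by −1.75 in ribosomal RNA. In total RNA that difference was −0.39 and was not called (edgeR adjusted p = 0.54). The female ribosomal knockouts also held more matrix RNA, as given above, and its part in the Igf1 values was not tested.

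Ribosomal and total RNA of the same muscles were then compared within each genotype on 1 common scale. In labelled knockouts 8 of 10 members differed, where 75.9% of genes did, and in controls 9 of 10, where 78.2% did. The share of genes that differ is so high that a member's call says little by itself, and the order of sizes carries the description. The median of all genes tested lay at −0.17 in knockouts and −0.10 in controls with TMM scaling, and at −0.36 and −0.33 with RLE scaling. Of the called genes 42.1% were higher in ribosomal RNA in knockouts and 44.9% in controls with TMM, and 32.9% and 34.1% with RLE.

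Fbxo40 and Trim63 had the highest ratios of ribosomal to total RNA among the members. Ratios per mouse take libraries of the same number as 1 mouse, a pairing that the data do not settle. Fbxo40 was 3.06-fold higher in ribosomal than in total RNA in knockouts (log2 1.62, SE 0.10, adjusted p = 3.1e-22) and 2.94-fold in controls. Per mouse its ratio was 3.14 to 4.84 in female knockouts and 2.15 to 4.96 in female controls, and 2.29 to 2.56 in male knockouts and 1.70 to 4.75 in male controls, so it was above 1 in all 28 mice. Trim63 was also above 1 in all 28 mice (1.14 in knockouts and 1.03 in controls on the log2 scale). Fbxo32 (0.77 and 0.64) and Gabarapl1 (0.58 and 0.95) were higher as well. Fbxo30 (−0.92 and −0.99), Ctsl (−0.73 and −0.70) and Foxo1 (−0.41 and −0.43) were lower in both genotypes. The Ctsl ratio was below 1 in 27 of 28 mice and the Fbxo30 ratio in 26. These directions held with RLE scaling. Foxo3 and Bnip3 did not keep theirs: they were called higher in controls with TMM (0.23 and 0.19) and lay at −0.00 and −0.03 with RLE, and in knockouts they were at 0.19 and 0.05 and were not called. The Foxo3 call in controls ended without any 1 of female mice 14 and 17 and male mice 22 and 27 (0.17 to 0.20, adjusted p of 0.059 to 0.081), and Foxo3 was called in knockouts without male mouse 13 (0.22, 0.049). Taken relative to the median of all genes, both lay above it under either scaling, by 0.33 and 0.29 in controls with TMM and by 0.33 and 0.30 with RLE.

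Map1lc3b was lower in ribosomal than in total RNA in knockouts (−0.57, SE 0.13, adjusted p = 6.1e-05) and was not called in controls (−0.01, adjusted p = 0.95). The difference between the genotypes was tested in each sex and is given after the ratios. Its ratio per mouse was 0.282 to 0.722 in female knockouts, all 7 below 1, against 0.523 to 1.46 in female controls, and 0.672 to 1.04 in male knockouts, against 0.618 to 1.395 in male controls. The Bnip3 ratio had a median of 0.741 in female knockouts, against 1.07 in female controls, and 1.27 in male knockouts, against 1.24 in male controls.

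Whether the knockout effect itself differed between RNA types was tested in each sex. In females 0 of 10 members passed edgeR, where 3.46% of genes did. Map1lc3b came closest, with a ribosomal effect lower than the total one by 0.82 (log2 difference −0.82, SE 0.25, adjusted p = 0.0502), and Bnip3 followed (−0.41, SE 0.14, adjusted p = 0.099). These 2 members had an unadjusted p under 0.05; DESeq2 called 0 members and limma-voom 2. Without the ribosomal library of control 18 and the total library of control 21, edgeR called both (Map1lc3b −0.97, adjusted p = 0.019, and Bnip3 −0.49, 0.038). Without mouse 5 or 9 of the knockouts or mouse 18, 19 or 21 of the controls, Map1lc3b was called at −0.9999 to −0.87 (adjusted p of 0.024 to 0.038). In males 0 of 10 passed, where 0.128% of genes did; 1 member had an unadjusted p under 0.05 (Gabarapl1, −0.47, adjusted p = 0.56), and DESeq2 and limma-voom called 0. Matrix genes were lower in ribosomal than in total RNA for 9 of 9 in both genotypes, and fibre markers were higher for 10 of 12 in knockouts and 9 of 12 in controls.

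**Figure D4:**
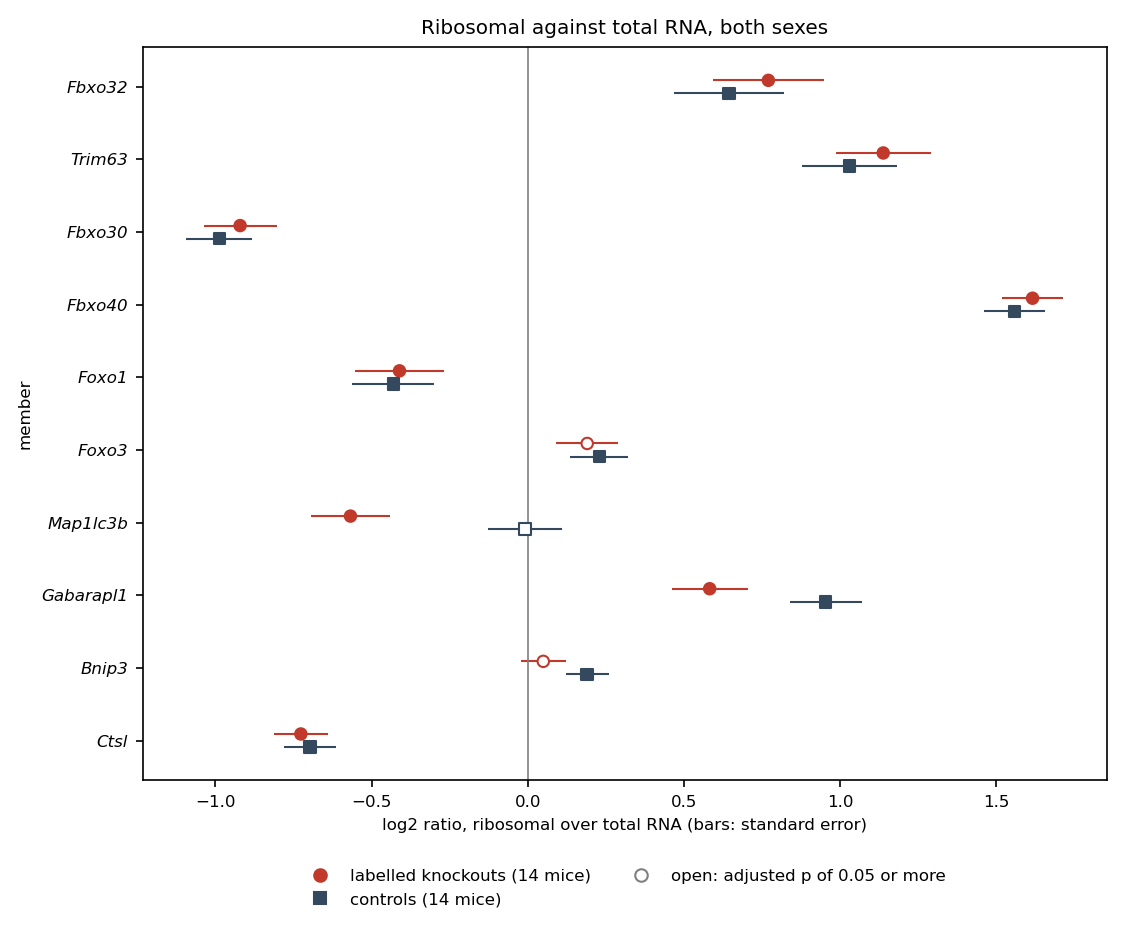
Log2 fold change of ribosomal over total RNA for the 10 members in labelled knockouts and controls, as points. Bars show 1 standard error, computed from the fold change and F statistic of the edgeR fit of all 56 libraries. Filled points passed the test. Fbxo40 lies farthest to the right in both genotypes (1.62 and 1.56), and Map1lc3b is the member whose points lie farthest apart (−0.57 in knockouts and −0.01 in controls).

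Male and female controls differed in several members. These contrasts use the same control libraries as the knockout comparisons, so the values are not independent of them. In ribosomal RNA 4 of 10 members passed, all lower in males, where 7.63% of genes passed. Ctsl had 67.6, 85.8 and 97.5 CPM in male controls, against 110.1, 139.1 and 187 CPM in female controls, with no overlap (log2 difference −0.73, SE 0.13, adjusted p = 0.00027). Foxo3 had 17.7, 21.3 and 23.95 CPM, against 23.8, 30.1 and 41.3 CPM, with ranges that met at their ends (−0.62, SE 0.15, adjusted p = 0.0076). Trim63 (−0.84, adjusted p = 0.020) and Fbxo32 (−0.70, adjusted p = 0.045) were the other calls, and both ended without female control 18 (−0.51, 0.11 and −0.36, 0.24). The Fbxo32 call also ended without any 1 of female controls 19 and 21 and male controls 21, 22, 23, 25, 26 and 27 (−0.73 to −0.62, adjusted p of 0.052 to 0.11), and the Trim63 call without male control 25 (−0.75, 0.056). Gabarapl1 lay at the threshold (−0.57, adjusted p = 0.0501) and was called without any 1 of female control 15 and male controls 20 and 27 (−0.71 to −0.67). Fbxo40 was called without female control 15 (−0.53, adjusted p = 0.029) or male control 20 (−0.61, 0.0058). Without male knockout 2 and male control 20, the libraries of low Ddx3y, 6 members passed, with Fbxo40 (−0.61) and Gabarapl1 (−0.70) added.

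In total RNA 2 of 10 members passed, both lower in males, where 8.7% of genes passed. Foxo3 had 16.7, 26.3 and 32.1 CPM in male controls, against 36, 38.5 and 56.1 CPM in female controls, without overlap (−0.68, SE 0.11, adjusted p = 0.00014). Ctsl had 179, 197.8 and 242.2 CPM, against 271.2, 296 and 469.4 CPM, also without overlap (−0.63, SE 0.11, adjusted p = 0.00024). Fbxo32 was at −0.53 (adjusted p = 0.23), and at −0.01 without female control 21. Of the FoxO family and target list, 4 of 17 were lower and 1 higher in males in ribosomal RNA, and 5 of 19 lower and 0 higher in total RNA. Among the other ligases 3 of 29 were lower and 2 higher in ribosomal RNA, and 4 lower and 1 higher in total RNA. Over all genes tested, 7.63% were called in ribosomal and 8.7% in total RNA.

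Fbxo32 and Trim63 varied together from mouse to mouse. After each library's group mean was taken off, Pearson's r over the 28 total libraries was 0.872 and Spearman's rho 0.698 (permutation within groups, 100000 draws, adjusted over 9 members p = 0.00027 and 0.0023). Without the 2 libraries farthest from the median of Fbxo32, female control 21 and male control 22, r was 0.698. In the 28 ribosomal libraries r was 0.775 (adjusted permutation p = 0.002) and rho 0.507 (0.10), and r was 0.491 without the 2 farthest libraries. Fbxo40 had r of 0.438 and rho of 0.523 with Fbxo32 in total RNA (adjusted permutation p = 0.078 and 0.035). For the other 7 members adjusted p for r was 0.13 or more. Likeness to other genes was also read after the group means were taken off. Among 8694 genes with a mean of at least 10 CPM, the ones most like Fbxo32 over the 28 total libraries included Trim63, Npc1 (r = 0.855) and Zcchc24 (0.815). Foxo1 was most like Pik3r1 (0.772), Plin5 (0.679), Dpep1 (0.676) and Ifngr1 (0.674), and the genes most like Map1lc3b included Hoxc11 (0.884) and Slc40a1 (0.867). With the group means kept, r with Fbxo32 was 0.716 for Npc1 and 0.829 for Zcchc24. With Foxo1 it was then 0.754 for Pik3r1, 0.689 for Plin5, 0.441 for Dpep1 and 0.45 for Ifngr1. With Map1lc3b it was 0.463 for Hoxc11 and 0.676 for Slc40a1. These likenesses are descriptions, since the libraries share depth and tissue.

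**Figure D5:**
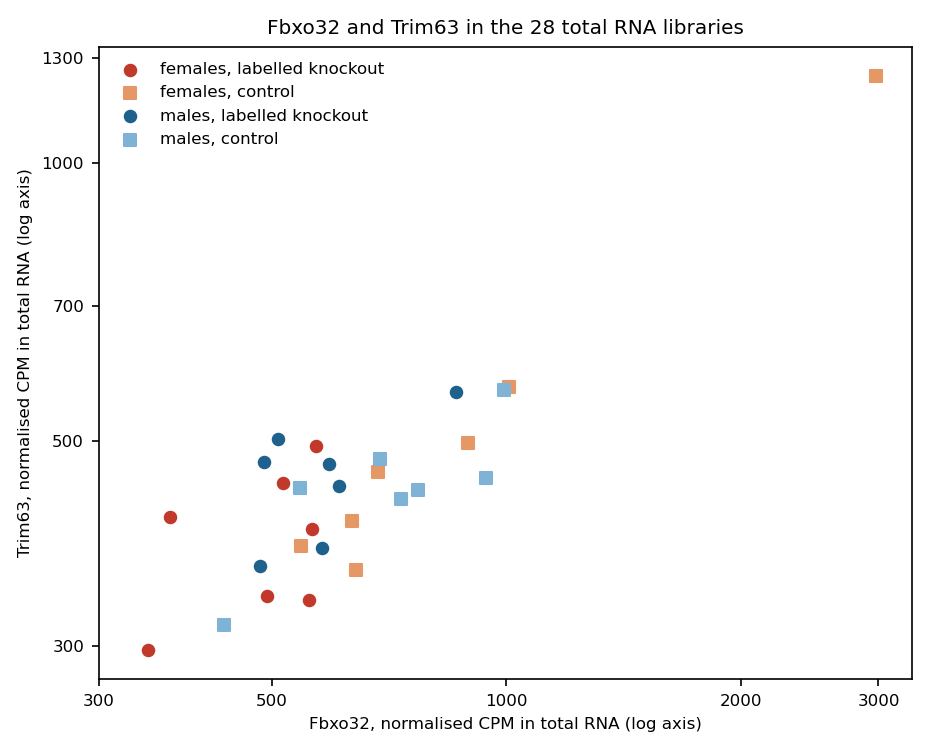
Normalised CPM of Trim63 against Fbxo32 in total RNA (both log axes), with 1 point for each of the 28 mice, marked by sex and genotype. Female control 21 stands alone at the upper right (2975 and 1243 CPM).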

How the data were processed

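The deposited table holds whole read counts per gene and library, which the authors made with UMI-tools, STAR and HTSeq on GRCm39, with DESeq2 1.40.1 in R 4.3.0 also named, per the submitters' processing notes. The kit was Lexogen QuantSeq 3', with 500 ng of input and 50 bp reads, per the labels' protocols, so a count stands for a 3' end and levels are not compared between genes. The 5 summary lines of HTSeq were left out of library sizes; reads of no feature were 4.82 to 12.5% in ribosomal and 9.54 to 23.4% in total libraries. Symbols came from a GRCm38.p6 gene table, which matched 52029 of 57010 identifiers (97.56% of counts). No 2 libraries were identical.

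The counts were fitted with edgeR 4.0.16 in R 4.3.3 (filterByExpr, TMM, quasi-likelihood F-test), with 28 ribosomal, 28 total or all 56 libraries and 1 mean per group, and a call needed a p under 0.05 after Benjamini-Hochberg adjustment over all genes tested (9098, 12860 and 12546). There were 12 contrasts. CPM of members, reference genes and pathway genes uses TMM-scaled library sizes. Sums of marker, mitochondrial and other library lists, and Ddx3y and Xist, use the plain total of counts in genes. Fold changes use the default prior count of edgeR. Standard errors of the edgeR fits are the absolute log2 fold change over the square root of the F statistic, and the intervals rest on them. They need not match the p-values: Fbxo30 in male ribosomal knockouts had 0.12, SE 0.22 and an unadjusted edgeR p of 0.82. Log2 CPM in the correlations, likenesses and pairing check uses a prior count of 2. The procedure was tested on simulated counts. Alternatives were RLE factors, no filter, DESeq2 1.42.0, limma-voom (limma 3.58.1), other sets of libraries, covariates and each library or mouse left out in turn.

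The members and lists were chosen with earlier results of these data known. Named are all members, up to 4 genes of lowest p per pathway list and knockout contrast, the 4 genes most like Fbxo32, Foxo1 and Map1lc3b, and Elavl1, Mss51 and Fkbp5; a few genes that this rule selects are not reported here. Mitochondrial, marker and sex genes describe the libraries. Ribosomal and total libraries of a group with the same number were taken as 1 mouse from the labels. The mean correlation of their deviations over 500 genes was 0.151 in female knockouts, 0.0616 in female controls, 0.12 in male knockouts and −0.152 in male controls, so the data do not settle the pairing.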

Additional observations from a re-analysis of the deposited data

Results flagged for a closer look

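Of 80 groups of 7 libraries (10 members in 8 groups), 13 held a library whose gap to its neighbour relative to the group's range exceeded Dixon's 95% critical value. Chance gives about 1 group in 20 where values are normal and groups are independent. CPM was used untransformed and the members share the same libraries, so the 13 cannot be set against that rate. The CPM of each flagged library is given here. In female controls they were Fbxo32 in ribosomal library 18 (2724, next 1352) and, all in total library 21, Fbxo32 (2975, next 1009), Trim63 (1243, next 572.1), Map1lc3b (377) and Ctsl (469.4). In female knockouts they were Foxo1 (58.5) and Map1lc3b (159.3), both in ribosomal library 5. In male knockouts they were Fbxo30 (21.9, the highest) and Gabarapl1 (51.1, the lowest) in ribosomal library 2, which held 0.160 M counts, and in total RNA Fbxo32 in library 1 (862.3) and Ctsl in library 2 (167.6, the lowest). In male controls they were Fbxo32 in ribosomal library 25 (478.6, the lowest) and Fbxo40 in ribosomal library 20 (1047). The knockout effect differed between males and females, by a test of that difference, for Bnip3 (0.75) and Ctsl (0.71) in ribosomal RNA.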

How the results depend on the processing

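Depth limits ribosomal RNA most, above all Fbxo30, Foxo1 and Foxo3, whose levels are low. RLE factors reversed Foxo3 (−0.0016) and Bnip3 (−0.0305) between ribosomal and total RNA in controls, as did DESeq2 (−0.0057 and −0.0285); the cause was not tested beyond the shift of the all-gene median. Counts of called members that moved were these. Without the ribosomal libraries under 0.75 M counts 2 were called in female ribosomal knockouts (5 with all libraries) and 1 in the sex difference of the knockout effect (2). Male ribosomal knockouts gave 1 with no filter, with limma-voom and with all 56 libraries in 1 fit (0). The sex difference in ribosomal RNA gave 4 with no filter and 1 with the mitochondrial covariate. The difference of the female knockout effect between RNA types gave 1 with no filter, 2 with limma-voom, 1 when total libraries above 19% of reads outside genes were left out and 2 without female control 18 ribosomal and 21 total, chosen after seeing the data (0). Male against female ribosomal controls gave 2 in a fit of those groups alone (4). Pearson correlations with Fbxo32 past the threshold numbered 4 in ribosomal libraries (1), where Map1lc3b turned to −0.57. By Spearman's rho no member passed there, and the lowest adjusted permutation p was 0.104, for Trim63. Without the 2 libraries farthest from the median of Fbxo32, r was 0.491 for Trim63 and −0.462 for Map1lc3b. It was 0.206 for Fbxo40 and 0.157 for Gabarapl1.

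Leaving out 1 library or mouse gave 4 to 5 calls in female and 0 to 1 in male ribosomal knockouts, 2 to 4 and 0 to 1 in total RNA, 1 to 3 and 0 to 0 for the sex difference (ribosomal, total), 8 to 9 between RNA types in knockouts and in controls, 0 to 1 in females and 0 to 0 in males for the effect between RNA types, and 2 to 6 and 2 to 2 for male against female controls. With the mouse as a replicate block, no member's call changed (Map1lc3b −0.74, adjusted p = 0.065, for the female effect between RNA types), and the genes called in that contrast fell to 261, against 434. Counts of all called genes that moved over 1.5 times were these. Female ribosomal knockouts gave 936 in a fit of those groups alone, 2508 with all 56 libraries and 508 with the mitochondrial covariate (1533 as reported). Male ribosomal knockouts gave 1749 with limma-voom and 1256 with all 56 libraries (815), and male total knockouts 645 without the libraries above 19% (1824). The sex difference in ribosomal RNA gave 626 with no filter, 684 with limma-voom, 829 with all 56 libraries and 23 with the covariate (312). In total RNA it gave 4 with no filter, 22 with DESeq2, 1 with all 56 libraries, 11 without female knockouts 5, 6 and 12 and 3 without the libraries above 19% (0). The effect between RNA types gave 188 in females without knockouts 5, 6 and 12 (434). In males it gave 53 with no filter, 45 with DESeq2, 37 with limma-voom, 27 without libraries under 0.75 M and 7 without those above 19% (16). Male against female ribosomal controls gave 1874 with limma-voom, 1135 with all 56 libraries and 1329 without the libraries of low Ddx3y, added after seeing the data (694).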
